A study of Citrus maxima and Citrus sinensis with 12 samples.

Results

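The miRNA families miR472, miR482, miR2118, miR3954 and miR9863, known in other studies as starters of phased small interfering RNAs (siRNAs), were examined in citrus root tips. Members were chosen by the family number in the name that the authors gave to each entry of their miRNA table, whatever the entry's values. Of 172 entries, 9 belonged to these families, and they held 5 of the 126 distinct mature sequences. The miR472 family had 2 entries with 2 sequences, miR482 had 1 entry, miR3954 had 2 entries with 1 sequence and miR9863 had 4 entries with 1 sequence. No entry (0) was named miR2118. All 9 entries passed the filter on low counts.

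Small RNA was sequenced from root tips of a pummelo, C. grandis (entered under the name Citrus maxima), and of sweet orange, C. sinensis. Both were grown from seedlings 11 weeks old at the start and kept in pots of sand in a greenhouse. Species and boron supply formed 4 groups: C. grandis at 400 µM H3BO3 (boric acid, the toxic level), C. grandis at 10 µM (the control level), C. sinensis at 400 µM and C. sinensis at 10 µM. All plants received Hoagland's nutrient solution for 15 weeks, and the labels name no transgene or mutation in either species. Each group had 3 libraries, each made from RNA mixed from 5 replicates. The labels do not say whether the same plants went into several libraries, so the SDs and p-values measure only the spread between these libraries. Library totals were 479090 to 1062488 counts, or 282149 to 577150 with each sequence counted once, and every pair of replicate libraries differed by more than counting error. The table holds miRNAs only, so the tissue could not be checked against messenger RNA markers of root cell types.

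In plants, miRNAs that are 22 nt long and begin with U can direct the cleavage of a transcript so that its remainder is copied into double-stranded RNA and cut in register into phased siRNAs. The miR472, miR482 and miR2118 superfamily is known for pairing with the stretch of NB-LRR disease resistance transcripts that encodes the P-loop, and thereby for starting phased siRNAs over a large resistance gene family. In citrus, miR3954 has been described as a starter of phased siRNAs, NAC transcription factor transcripts among its sources, and miR9863 is known from barley and wheat, where it acts on Mla resistance alleles. Phased siRNAs themselves were not measured in the table used here.

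The 5 mature sequences are shown because their length, first base and seed decide how far the family names carry over to these entries. They are given as in the authors' deposited table, 5′ to 3′, with the seed (bases 2 to 8 from the 5′ end) in capitals.
csi-miR472: uUUUUCCCacaccucccauccc
ptc-miR472a: uCCCUACUccacccaugccaua
csi-miR3954: uUGGACAGagaaaucacgguca
ata-miR9863a-3p: cUUGAUCUagcuucugaauucagu
gma-miR482a-5p: aGAAUUUGugacuguaucaucacu
The prefixes name the species of the closest known miRNA (csi, sweet orange; ptc, poplar; ata, the goat grass Aegilops tauschii; gma, soybean). The csi-miR472, ptc-miR472a and csi-miR3954 sequences were 22 nt long and began with U, the form known for starters of phased siRNAs. In all, 19 of the 126 sequences (15.1%) were 22 nt long, and 15 of those 19 began with U. The ata-miR9863a-3p and gma-miR482a-5p sequences were 24 nt long and began with C and A, so for these 2 sequences the data go against the trigger label in both length and first base. In plants, 24 nt is the length of most small RNAs of the DNA methylation pathway, and it was also the commonest length in the table, with 50 sequences (39.7%), of which 8 began with U. The name gma-miR482a-5p refers to the 5p arm, whereas the miR482 that pairs with resistance transcripts is the 3p arm.

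No pair among the 5 seeds was identical, and 0 of the other sequences in the table shared a seed with any of them. The 2 miR472 sequences, although of one family by name, were 11 edits apart (base changes, insertions or deletions). That was the smallest distance between members, and the largest was 16. Edits were counted end to end and seeds at fixed bases 2 to 8. An offset of the sequence ends thus adds edits and changes the seed, and its part in these values was not measured. Every member was 7 to 9 edits from its nearest other sequence in the table. The 2 miR472 hairpins were more alike on the opposite strand, the star sequence that is cut out beside the mature miRNA. Both deposited stars were 21 nt long and held the same 10-base run, given in capitals.
csi-miR472 star: gAUGGGUGAGUugggaaaaua
ptc-miR472a star: ugguAUGGGUGAGUagggaag
As a whole the 2 stars differed by 8 edits. When mature and star were folded together with RNAduplex, 17 bases of csi-miR472 and 19 of ptc-miR472a were paired, with energies of −21.9 and −34.6 kcal/mol. The csi-miR3954 duplex had 18 mature bases paired at −24.9 kcal/mol, and the gma-miR482a-5p duplex 19 at −21.4 kcal/mol. For ata-miR9863a-3p the deposited stars left only 12 or 13 of its 24 bases paired, at −11.8 and −11.4 kcal/mol, the fewest paired bases and the weakest duplexes of the 5 sequences.

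The entries lay on 5 scaffolds, in the 250-nt windows that the authors' deposited table gives, whose genome build is not given in the sources used here. No annotation of genes, exons or untranslated regions was used, so the surroundings of the windows are not described. Entry csi-miR472 was on the minus strand of scaffold 2 at 28603065 to 28603314, and gma-miR482a-5p on the same strand of that scaffold at 27548907 to 27549156. Entry ptc-miR472a was on the plus strand of scaffold 8 at 16726631 to 16726880. The 2 csi-miR3954 windows, at 5038097 to 5038346 and 5038007 to 5038256 on the plus strand of scaffold 9, shared 160 nt and therefore overlap the same stretch of genome. The 4 ata-miR9863a-3p windows lay on scaffold 4 (minus strand, 1501385 to 1501634), scaffold 6 (plus strand, 21526481 to 21526730) and scaffold 9 (plus strand, 21041048 to 21041297 and 21047517 to 21047766). The last pair started 6469 nt apart. Entries with the same mature sequence carried identical counts in all 12 libraries, so they are 1 measurement and each sequence is described once.

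With each sequence of the table counted once, the 5 sequences together made up 4.42%, 3.65% and 3.48% of all counts in the C. grandis libraries at 400 µM. In those at 10 µM they made up 4.23%, 4.21% and 3.54%. In C. sinensis they made up 2.998%, 2.93% and 2.61% at 400 µM, and 3.16%, 3.12% and 2.56% at 10 µM. The ranges of the 2 boron levels overlapped in each species (exact two-sided permutation test, p = 0.9 in C. grandis and 0.6 in C. sinensis, n = 3 libraries per level). With 3 libraries against 3 the smallest p that this test can give is 0.1. Most of these counts were those of csi-miR472 and ptc-miR472a.

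Levels are given in CPM, counts divided by the library size after trimmed-mean scaling, in the order of replicates 1, 2 and 3. The library size counts a shared sequence at each of its loci, unlike the shares above. In bulk RNA a lower level from fewer cells of a type and one from less RNA per cell cannot be told apart. Comparisons used edgeR's quasi-likelihood test over all 170 entries that passed the filter, with Benjamini-Hochberg adjustment and a threshold of 0.05, and differences are log2 ratios, of 400 µM over 10 µM or of C. grandis over C. sinensis.

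The csi-miR472 sequence was at 12638.5, 8205 and 6334 CPM in C. grandis at 400 µM, against 6772, 7013 and 5751 CPM in C. grandis at 10 µM. The first 2 libraries at 400 µM stood above all 3 controls, and replicate 3 lay among them, so the groups overlapped. In C. sinensis it was at 6147, 6013 and 5443 CPM at 400 µM, against 7045, 8009 and 5122 CPM at 10 µM, again with overlap. Means were 9059 ± 3238 CPM at 400 µM and 6512 ± 670.02 CPM at 10 µM in C. grandis, and 5867 ± 374 CPM at 400 µM and 6725 ± 1470.2 CPM at 10 µM in C. sinensis (SD, n = 3 each). The boron difference was 0.48 ± 0.24 (log2, SE; adjusted p = 0.336) in C. grandis and −0.20 ± 0.24 (adjusted p = 0.893) in C. sinensis, and neither passed the test. Without replicate 1 of C. grandis at 400 µM, its highest library, the C. grandis difference was 0.16, without replicate 2 it was 0.18, and without replicate 3 of C. grandis at 10 µM it was 0.08. With the scaling factors of all 12 libraries kept these 3 leave-outs gave 0.16, 0.54 and 0.39.

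The ptc-miR472a sequence was at 10697, 6763 and 7919 CPM in C. grandis at 400 µM, against 5298, 5408 and 5094 CPM in C. grandis at 10 µM. All 3 libraries at 400 µM were above all 3 at 10 µM. The C. sinensis libraries were at 5894, 6648 and 7729 CPM at 400 µM, against 5806, 5099.6 and 5599.6 CPM at 10 µM, and here too the groups did not overlap, by a margin of 5894 against 5806 CPM. Means were 8459 ± 2022 CPM at 400 µM and 5267 ± 159 CPM at 10 µM in C. grandis, and 6757 ± 922 CPM at 400 µM and 5502 ± 363 CPM at 10 µM in C. sinensis (SD, n = 3 each). The differences of 0.68 ± 0.19 in C. grandis (log2, SE; unadjusted p = 0.00310, adjusted p = 0.0788) and 0.30 ± 0.19 in C. sinensis (adjusted p = 0.887) did not pass the adjusted test. Leaving out replicate 3 of C. grandis at 10 µM gave a C. grandis difference of 0.34 with the scaling recomputed and 0.66 with it kept. The authors' deposited table of boron-responsive miRNAs in C. grandis lists this entry at a log2 fold change of 0.67 with a p-value of 0.0283 and a false discovery rate of 0.560.

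The csi-miR3954 sequence was at 2069.6, 3748 and 2589.9 CPM in C. grandis at 400 µM, against 5494, 4088 and 6994 CPM in C. grandis at 10 µM. All 3 libraries at 400 µM were below all 3 at 10 µM, with replicate 2 of each level nearest to the other group. In C. sinensis it was at 4422, 3240.2 and 3021 CPM at 400 µM, against 5273, 4079 and 3847 CPM at 10 µM, where replicate 1 at 400 µM lay above 2 of the controls. Means were 2802 ± 859 CPM at 400 µM and 5525 ± 1453 CPM at 10 µM in C. grandis, and 3561 ± 754 CPM at 400 µM and 4399.9 ± 765 CPM at 10 µM in C. sinensis (SD, n = 3 each). The C. grandis difference of −0.98 ± 0.26 was the largest of the 5 members in size (log2, SE; 95% interval −1.55 to −0.41; unadjusted p = 0.00277), but its adjusted p of 0.0788 missed the threshold. It passed with median-of-ratios scaling (adjusted p = 0.0485), total-count scaling (0.0421) and DESeq2 (0.00513). Without replicate 2 of C. grandis at 400 µM the difference was −1.55 with an adjusted p of 0.00881, and over all alternatives its adjusted p ran from 0.00513 to 0.298. The C. sinensis difference was −0.31 ± 0.26 (adjusted p = 0.887). Each C. sinensis library at 400 µM was lower than the one of the same number at 10 µM. The labels do not tie these numbers to shared plants. With the replicate number as a block the C. sinensis difference was −0.31 ± 0.26 with an adjusted p of 0.890. The authors' deposited table lists the C. grandis change of this entry at −1.01 (log2) with a p-value of 0.00481 and a false discovery rate of 0.406.

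The ata-miR9863a-3p sequence was at 1203, 1970.4 and 1641 CPM in C. grandis at 400 µM, against 2582, 2111 and 1501 CPM in C. grandis at 10 µM, and these groups overlapped. The C. sinensis libraries were at 646, 758 and 696 CPM at 400 µM, against 618, 875 and 819 CPM at 10 µM, also with overlap. Every C. grandis library, at either boron level, was above every C. sinensis library. Means were 1605 ± 385 CPM at 400 µM and 2065 ± 542 CPM at 10 µM in C. grandis, and 699.6 ± 56.1 CPM at 400 µM and 771 ± 135 CPM at 10 µM in C. sinensis (SD, n = 3 each). The boron difference was −0.36 ± 0.24 (adjusted p = 0.433) in C. grandis and −0.14 ± 0.24 (adjusted p = 0.924) in C. sinensis (log2, SE). With 1 library left out the C. grandis difference ran from −0.88 (without replicate 2 at 400 µM, adjusted p = 0.0990) to −0.17 (without replicate 1 at 10 µM, 0.921).

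The gma-miR482a-5p sequence was the least abundant member, with 128 to 222 counts per library. It was at 215, 319 and 197 CPM in C. grandis at 400 µM, against 271, 219 and 275 CPM in C. grandis at 10 µM. The C. sinensis libraries were at 274, 254 and 247 CPM at 400 µM, against 273, 226 and 276 CPM at 10 µM. All 4 groups overlapped, and replicate 2 of C. grandis at 400 µM was its highest library. Means were 244 ± 65.8 CPM at 400 µM and 255 ± 31.3 CPM at 10 µM in C. grandis, and 259 ± 14.2 CPM at 400 µM and 258 ± 27.9 CPM at 10 µM in C. sinensis (SD, n = 3 each). The boron difference was −0.06 ± 0.22 (log2, SE; 95% interval −0.53 to 0.41; adjusted p = 0.882) in C. grandis and 0.00 ± 0.22 (95% interval −0.47 to 0.48; adjusted p = 0.999) in C. sinensis.

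**Figure D1:**
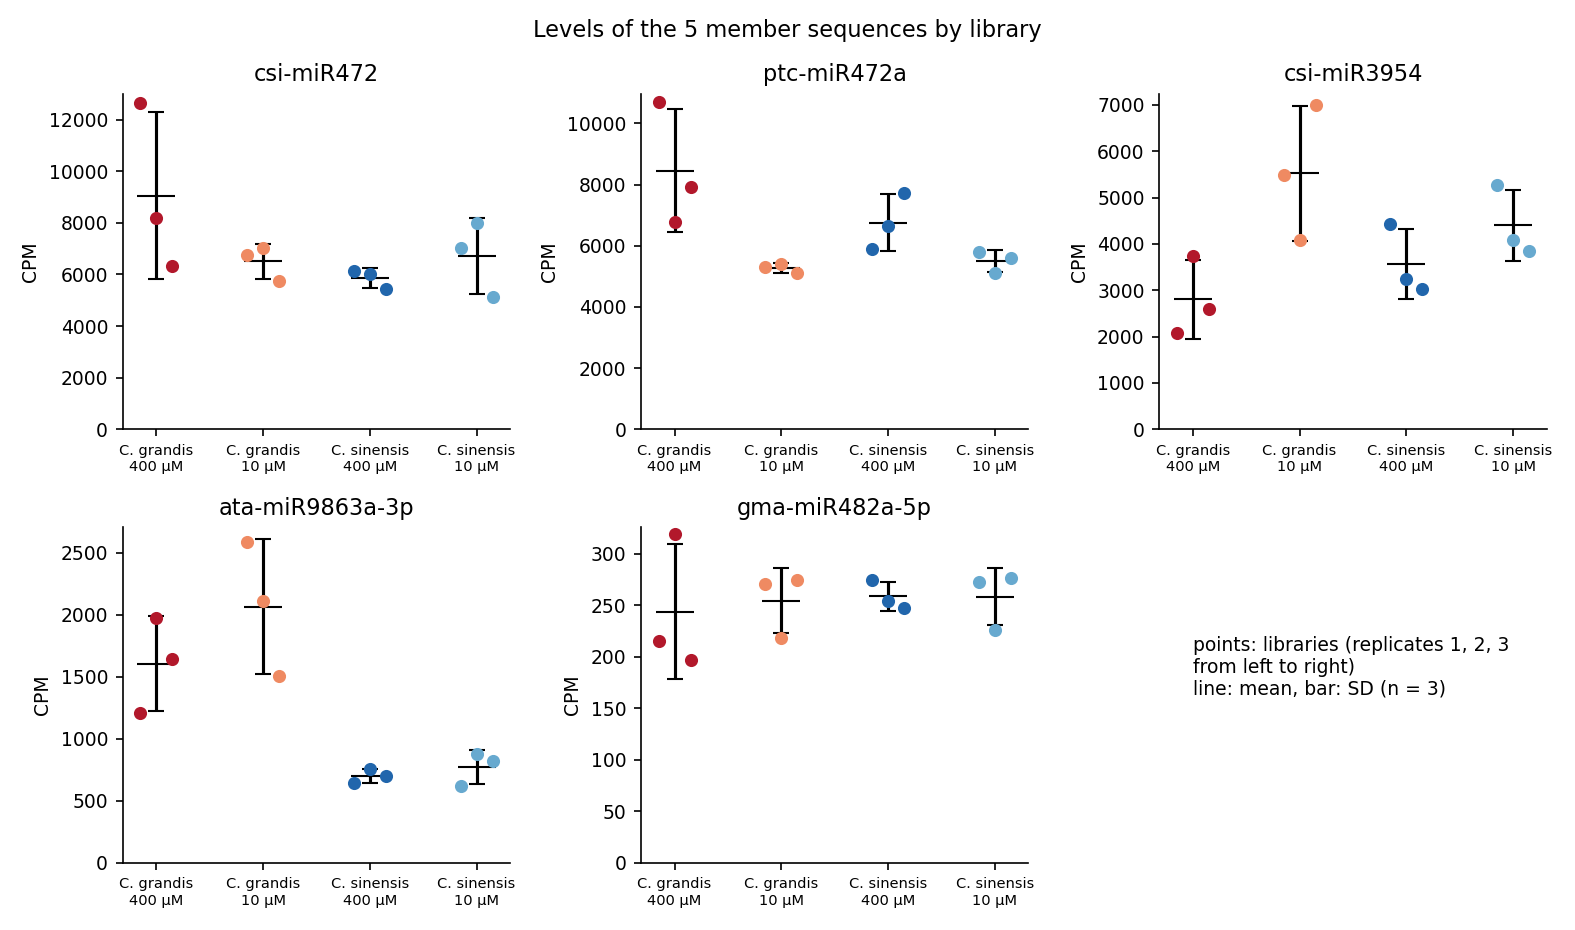
Level of each of the 5 sequences in CPM (counts scaled to the library size, trimmed mean), with 1 panel per sequence, 1 point per library and the mean with its SD for the 3 libraries of each group. The C. grandis libraries of ata-miR9863a-3p, at 1203 to 2582 CPM, all sit above the C. sinensis libraries, at 618 to 875 CPM.

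In all 4 groups gma-miR482a-5p had the lowest mean level and ata-miR9863a-3p the next lowest, each separated from its neighbours in the order by gaps wider than the SDs. The first 3 places were held by csi-miR472, ptc-miR472a and csi-miR3954. In C. grandis at 400 µM and in C. sinensis at both levels the 2 miR472 sequences were ahead of csi-miR3954 and differed from each other by less than the larger of their SDs. In C. grandis at 10 µM the order was csi-miR472, csi-miR3954 and ptc-miR472a, and these neighbours also differed by less than the larger SD. Among the 124 sequences tested, csi-miR472 ranked 11, 14, 17 and 17 in mean level (C. grandis at 400 and 10 µM, then C. sinensis at 400 and 10 µM). The csi-miR3954 rank was 26 in C. grandis at 400 µM, against 17 in C. grandis at 10 µM, and 22 at 400 µM and 19 at 10 µM in C. sinensis. The ata-miR9863a-3p rank was 32 at 400 µM and 27 at 10 µM in C. grandis, against 43 at 400 µM and 42 at 10 µM in C. sinensis. Reads were counted whole and mature lengths are 22 or 24 nt, so no length correction was made in these ranks.

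In the comparison of 400 µM with 10 µM in C. grandis, 0 of the 5 sequences passed the adjusted test, beside 1.18% of all entries tested (2 of 170). At an unadjusted p under 0.05 there were 2 of the 5, csi-miR3954 (lower) and ptc-miR472a (higher), beside 18.2% of all entries. The same 2 had groups that did not overlap, beside 13.5% of all entries. DESeq2 called 1 of the 5, csi-miR3954, beside 2.94% of all entries (5 of 170). The median difference was −0.06 (log2) over the 5 sequences and 0.05 over all 124. The members lay on both sides of 0, between −0.98 and 0.68.

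In C. sinensis, 0 of the 5 passed the adjusted test, beside 0% of all entries, and 0 had an unadjusted p under 0.05, beside 1.76% of all entries. DESeq2 called 0 of the 5, also beside 0% of all entries. The groups of 1 sequence, ptc-miR472a, did not overlap, beside 10% of all entries. Differences ran from −0.31 to 0.30 (log2), with a median of −0.14 over the 5 sequences and 0.02 over all.

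The difference of the boron effects (C. grandis minus C. sinensis) asks whether the species responded unequally, and 0 of the 5 passed the adjusted test, beside 0% of all entries. With edgeR 0 of the 5 had an unadjusted p under 0.05, beside 5.29% of all entries. DESeq2 called 0 of the 5, beside 1.18% of all entries. The largest values were 0.67 ± 0.34 for csi-miR472 (log2, SE; 95% interval −0.07 to 1.42) and −0.67 ± 0.37 for csi-miR3954 (95% interval −1.48 to 0.13), each with an adjusted p of 0.841. For ptc-miR472a the value was 0.39 ± 0.26 (95% interval −0.19 to 0.96). With 1 library left out these values ran from 0.31 (without replicate 3 of C. grandis at 10 µM) to 0.88 for csi-miR472, from −1.21 (without replicate 2 of C. grandis at 400 µM) to −0.47 for csi-miR3954 and from 0.0959 (without replicate 3 of C. grandis at 10 µM) to 0.52 for ptc-miR472a. None of these leave-outs gave a member call. A difference between the species in the boron effect was thus not shown for any of the 5, although the intervals of csi-miR472 and csi-miR3954 reach past 1 in size.

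Both species were counted on one list of mature sequences, so a sequence difference between them cannot be told apart from a difference in level. Between the species, ata-miR9863a-3p, whose length and first base go against the trigger label, was higher in C. grandis at both boron levels. At 400 µM the difference was 1.20 ± 0.24 (log2, SE; 95% interval 0.67 to 1.72; adjusted p = 0.00242), a 2.29-fold higher level in C. grandis than in C. sinensis. At 10 µM it was 1.42 ± 0.24 (95% interval 0.89 to 1.95; adjusted p = 0.000675), a 2.68-fold higher level. It was the only member called at either level, 1 of 5 beside 28.8% of all entries at 400 µM and 1 of 5 beside 28.2% at 10 µM. With each sequence counted once, 22 of 124 were called higher and 11 lower at 400 µM. At 10 µM 22 were called higher and 14 lower. A share of 1 in 5 is thus not above that of the whole table. Groups did not overlap for 2 of 5 members at 400 µM, beside 48.2% of all entries, and for 1 of 5 at 10 µM, beside 47.1%.

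The call of ata-miR9863a-3p at 400 µM depended on the scaling when a library was left out. It was lost without replicate 2 of C. grandis at 400 µM (0.65, adjusted p = 0.0916), and without replicate 1 (0.93, 0.102), replicate 2 (1.07, 0.0754) or replicate 3 (0.89, 0.0942) of C. sinensis at 400 µM. With the scaling factors of all 12 libraries kept it passed in every one of the 12 leave-outs (1.02 to 1.37, adjusted p 0.00103 to 0.0148). At 10 µM it passed under every alternative run.

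The second member with separate groups at 400 µM was csi-miR472, whose difference of 0.63 ± 0.24 had an unadjusted p of 0.0238 and an adjusted p of 0.0724. At 10 µM its difference was −0.05 ± 0.24 (adjusted p = 0.872). It passed at 400 µM when replicate 3 of C. grandis at 400 µM was left out (0.83, adjusted p = 0.0249). For ptc-miR472a the species difference was 0.32 ± 0.19 at 400 µM (adjusted p = 0.188) and −0.06 ± 0.19 at 10 µM (0.804). For csi-miR3954 it was −0.35 ± 0.26 at 400 µM (0.315) and 0.33 ± 0.26 at 10 µM (0.357). Neither csi-miR3954 nor gma-miR482a-5p passed at 400 µM except without replicate 2 of C. grandis with the scaling recomputed, where they were at −0.99 (adjusted p = 0.0195) and −0.71 (0.0258). The median difference of all entries was −0.14 without that library, against 0.18 with all 12.

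**Figure D2:**
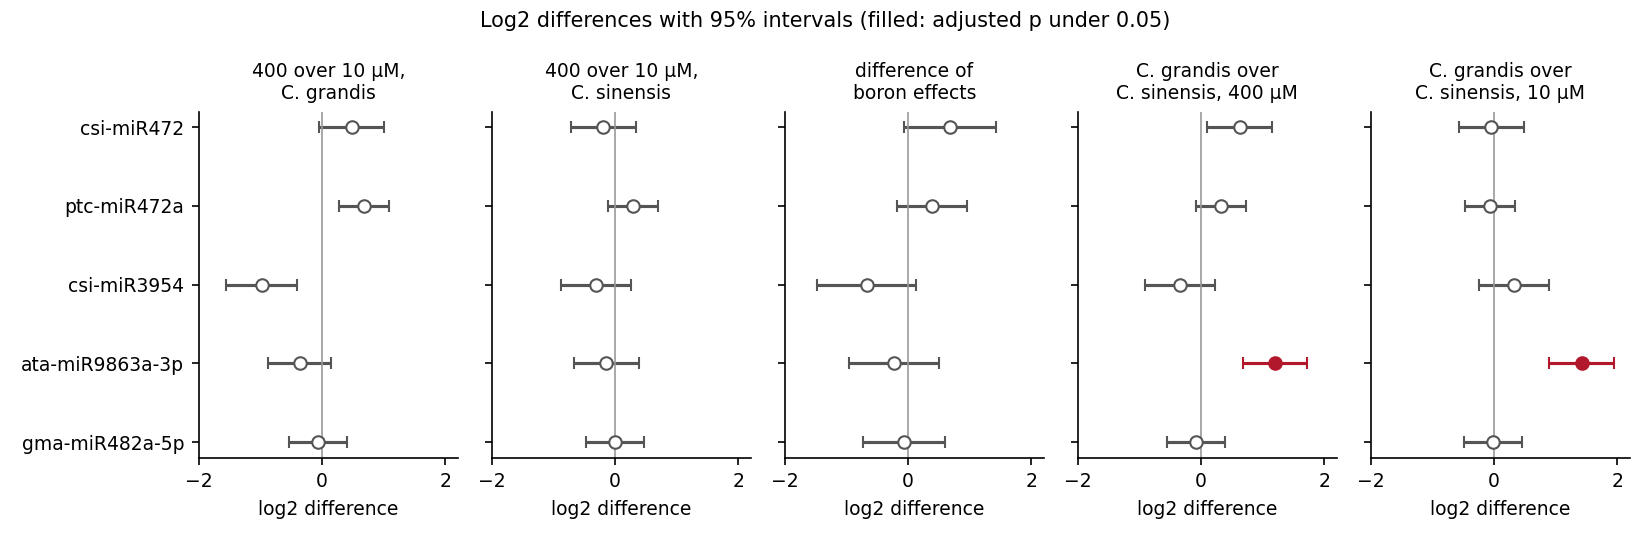
Log2 difference with its 95% interval for each of the 5 sequences in the 5 comparisons, with filled symbols for an adjusted p under 0.05. The filled symbols are those of ata-miR9863a-3p in the species comparisons, at 1.20 for 400 µM and 1.42 for 10 µM.

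**Figure D3:**
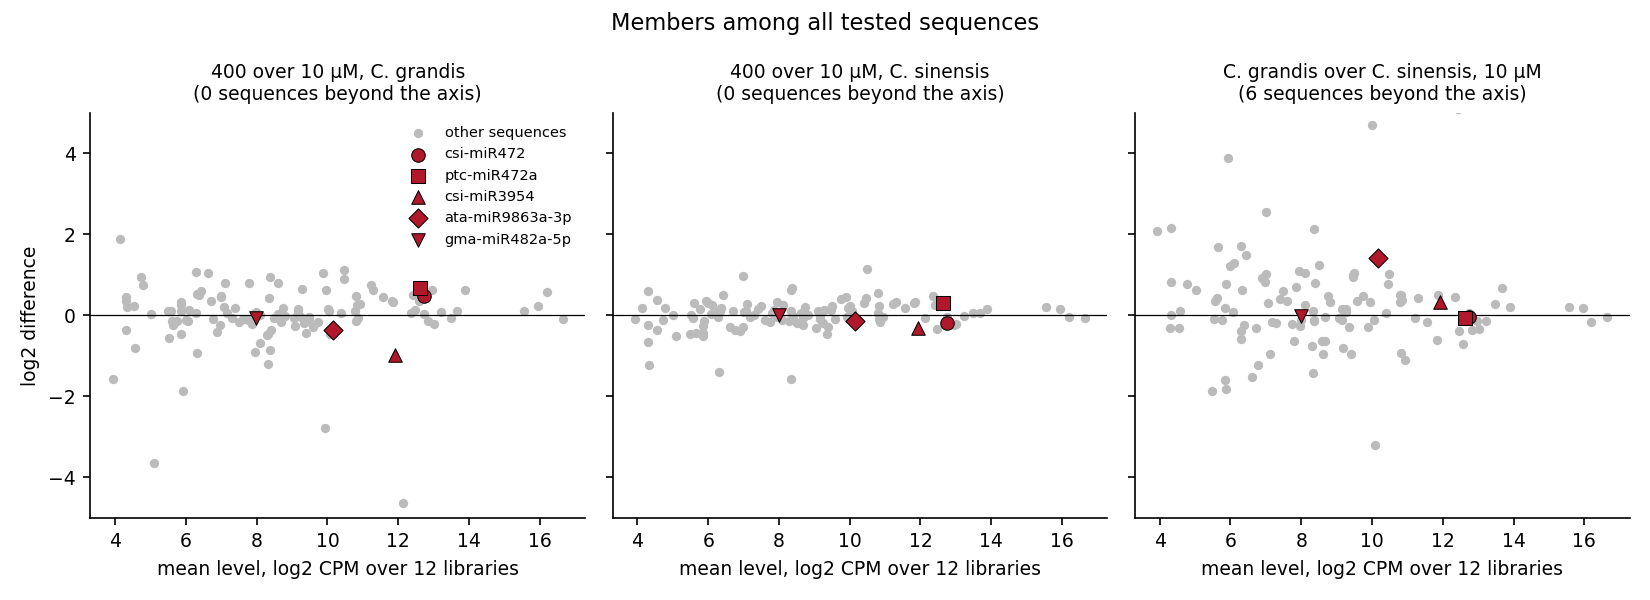
Log2 difference against mean log2 CPM for the 124 sequences tested, with the 5 members as red symbols and the other sequences in grey, in 3 of the comparisons. In the boron comparison of C. grandis csi-miR3954 lies at −0.98 and ptc-miR472a at 0.68, and in the species comparison at 10 µM 6 sequences fall outside the axis and are not shown.

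Scaling enters every level above, and it moved the C. grandis boron comparison as a whole. The median difference of all entries there was 0.07 with the trimmed mean, −0.01 with median-of-ratios scaling and −0.17 with total counts. Relative to that median, csi-miR3954 was at −1.05, −1.04 and −1.01 under these 3 scalings, and over 33 settings at −1.21 to −0.86. Relative to the median, ptc-miR472a was at 0.42 to 0.86 over the same settings.

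Ratios of 2 members within a library need no scaling. They were formed after the values above had been seen. The ratio of csi-miR3954 to ptc-miR472a counts was 0.193, 0.554 and 0.327 in C. grandis at 400 µM, against 1.04, 0.756 and 1.37 in C. grandis at 10 µM. The 3 libraries at 400 µM were below all controls. This separation followed from the levels above, since csi-miR3954 was lower and ptc-miR472a higher in all 3. The separate groups and the p-value of this ratio thus add no evidence beyond those levels. In C. sinensis the ratio was 0.750, 0.487 and 0.391 at 400 µM, against 0.908, 0.800 and 0.687 at 10 µM, with overlap of 1 library. On the log2 scale the difference was −1.65 in C. grandis (means −1.61 ± 0.76 at 400 µM and 0.04 ± 0.43 at 10 µM, SD, n = 3 each; exact permutation p = 0.1, adjusted p = 0.4 over 8 tests). The value 0.1 is the smallest this design allows. In C. sinensis the log2 difference was −0.60 (exact permutation p = 0.2, adjusted p = 0.4).

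Against csi-miR472, the ratio of csi-miR3954 was 0.164, 0.457 and 0.409 in C. grandis at 400 µM, against 0.811, 0.583 and 1.22 at 10 µM, again without overlap (log2 difference −1.41, exact permutation p = 0.1, adjusted p = 0.4). The levels of csi-miR3954 alone were already apart in C. grandis, so this separation too adds no independent evidence. In C. sinensis it was 0.719, 0.539 and 0.555 at 400 µM, against 0.749, 0.509 and 0.751 at 10 µM (−0.14, exact permutation p = 0.8, adjusted p = 0.9). The ratio of the 2 miR472 sequences, ptc-miR472a over csi-miR472, was 0.846, 0.824 and 1.25 in C. grandis at 400 µM, against 0.782, 0.771 and 0.886 at 10 µM, and 0.959, 1.11 and 1.42 in C. sinensis at 400 µM, against 0.824, 0.637 and 1.09 at 10 µM. Both pairs of groups overlapped (exact permutation p = 0.3 in C. grandis and 0.2 in C. sinensis).

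**Figure D4:**
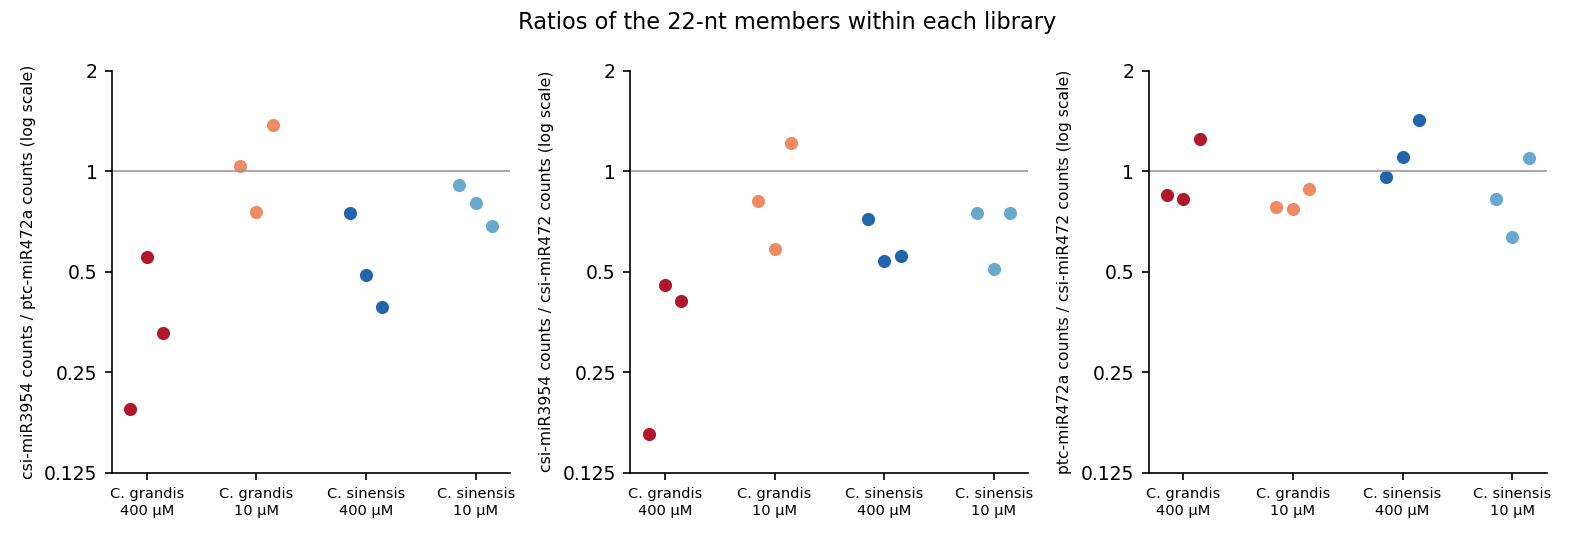
Ratio of the counts of 2 members in the same library, on a log axis, for 3 pairs of members, with 1 point per library and the groups of each species side by side. The csi-miR3954 to ptc-miR472a ratio lies at 0.193 to 0.554 in C. grandis at 400 µM and at 0.756 to 1.37 in C. grandis at 10 µM.

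Across the 12 libraries, likeness of pattern was measured as the root mean square difference of log2 CPM after each sequence was centred on its own mean, over 119 sequences outside these families. It is a description of these libraries, which all sequences share. Nearest to csi-miR472 were ccl-miR167a (0.215), a regulator of auxin response factors, and ath-miR165a-3p (0.259), a regulator of class III HD-ZIP factors, where the median over all sequences was 0.550. The same 2 were nearest to ptc-miR472a, in the other order, with 0.213 for ath-miR165a-3p and 0.246 for ccl-miR167a (median 0.509). For gma-miR482a-5p they were ath-miR868-3p (0.125) and an unnamed sequence of scaffold 4 (0.147; median 0.501). For csi-miR3954 they were ath-miR868-3p (0.372) and an unnamed sequence of scaffold 1 (0.392; median 0.687). For ata-miR9863a-3p they were mtr-miR5224b (0.274) and an unnamed sequence of scaffold 5 (0.345; median 0.785). The companions of the last 3 members were all 24 nt long. Between members, the 2 miR472 sequences were the most alike (0.315), and ata-miR9863a-3p and csi-miR3954 the least (0.797).

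Among other miRNAs described in plants as starters of secondary small RNAs, 4 entries with 3 sequences were present, namely 2 loci of 1 miR390 sequence (miR390 sets off the TAS3 siRNAs that act on auxin response factors) and 2 miR3627 sequences. None of the 4 passed the adjusted test in the boron comparison of C. grandis, in that of C. sinensis or in the difference between them (0 in each). The shares of all entries called there were 1.18%, 0% and 0%. The smallest p in C. grandis was that of the miR3627 entry at 1403, 845 and 1912 CPM at 400 µM, against 540.2, 712 and 758 CPM at 10 µM. Its groups did not overlap, beside 13.5% of all entries. Its difference of 1.05 (log2) had an adjusted p of 0.0788, with 0.44 (0.887) in C. sinensis. In the species comparisons miR390 was lower in C. grandis, by −1.11 and −1.10 (log2) at its 2 loci at 400 µM (adjusted p = 0.00681 and 0.00706). At 10 µM the difference was −0.76 at both (adjusted p = 0.0401), and the groups overlapped. The 2 loci share 1 sequence with nearly the same counts, so they are not independent. These calls stand beside 28.8% of all entries at 400 µM and 28.2% at 10 µM. The direction of miR390 was opposite to that of ata-miR9863a-3p, whose length and first base go against the trigger label. The median over the 3 sequences was 0.81 in the boron comparison of C. grandis, 0.06 in that of C. sinensis, −0.20 between species at 400 µM and −0.76 at 10 µM. Over all 124 sequences these medians were 0.05, 0.02, 0.15 and 0.09.

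Of miR162, miR168 and miR403, families known for acting on DCL1, AGO1 and AGO2 transcripts, 8 entries with 6 sequences were present. They were grouped by family name only. The entries named ath-miR168b-3p and aly-miR168b-3p, and an entry named ath-miR403-3p, were 24 nt long, and the others 21 nt. The family function may thus not carry over to every entry. In the boron comparisons 0 of the 8 passed in either species, and 0 in the difference between them. Over all entries 1.18% passed in C. grandis, 0% in C. sinensis and 0% in the difference. The smallest p was that of miR162 in both species, at 0.34 (log2, adjusted p = 0.336) in C. grandis and 0.33 (0.887) in C. sinensis. Between the species at 400 µM, 3 entries with 2 sequences were higher in C. grandis, miR162 by 0.53 (adjusted p = 0.0441) and miR403 by 0.49 at 2 loci (0.0380 and 0.0382). At 10 µM, 1 entry was higher, miR162 by 0.52 (0.0490). These counts stand beside 28.8% of all entries called at 400 µM and 28.2% at 10 µM. All 8 values were above 0 in both species comparisons, where 100 of all 170 entries were above 0 at 400 µM and 91 of 170 at 10 µM.

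Of the 39 rows in the authors' deposited table of predicted targets, 1 was for a member. It pairs csi-miR3954 with a gene annotated as a weak chloroplast movement under blue light protein, a family known for chloroplast positioning in leaves. That table held 0 rows for csi-miR472, ptc-miR472a, ata-miR9863a-3p or gma-miR482a-5p, so the deposited predictions give no resistance gene target for any member. With 39 rows for a series of 172 entries it may be a selection. An absent row thus does not show that a target was sought and not found. Whether transcripts cut by these miRNAs changed was not measured here.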

How the data were processed

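Per the labels' protocols, root RNA was made into TruSeq small RNA libraries and sequenced single-end on an Illumina HiSeq. The submitters' processing notes name DESeq without a version, and trimming, aligner, miRNA caller and genome build are not given in the sources used here. The authors' expression table holds whole-number counts per miRNA locus, not normalised, with reads of a shared sequence counted at each of its loci (73 entries). A hairpin score and the sequences come from the deposited list of identified miRNAs. The authors' table of boron-responsive miRNAs holds the log2 fold change, p-value and false discovery rate of each entry.

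Counts were filtered with filterByExpr (minimum count 10) and tested with edgeR 4.0.16 in R 4.3.3, with trimmed-mean scaling, a quasi-likelihood fit of all 12 libraries with 1 mean per group, 5 two-sided contrasts and Benjamini-Hochberg adjustment over 170 entries. The biological coefficient of variation was 28.1%. Levels are CPM, with a prior count of 2 on the log2 scale. Duplexes were folded with ViennaRNA 2.7.2. DESeq2 1.42.0, other scalings, filters and fits, a replicate block and leave-outs were alternatives. The labels do not say that replicate numbers mark shared plants. In C. sinensis the deviations of same-numbered libraries from their group means correlated at 0.45, 0.27 and 0.31 across boron levels. Those of different numbers in C. sinensis correlated at −0.47 to 0.13, so same-numbered libraries were the more alike there. Such correlations alone do not identify pairs, since in C. grandis replicate 1 at 400 µM and replicate 2 at 10 µM correlated at 0.51. The numbers entered only an alternative fit, as a block. The scripts were tested on simulated data. The alternatives of fixed scaling factors in leave-outs and ratios within a library were added after the values were seen. Named were all members, the 2 sequences most like each, and in 2 comparison lists the called entries (up to 3 per comparison) or the one with the smallest p. Members and lists were chosen with earlier results of these data known.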

Additional observations from a re-analysis of the deposited data

How the results depend on the processing

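The boron comparisons of C. sinensis and the difference of boron effects gave 0 member calls under every alternative run, and the species comparison at 10 µM gave 1 under every one. In the boron comparison of C. grandis the count was 1 in place of 0 under median-of-ratios scaling, total-count scaling and DESeq2, each time csi-miR3954, and 0 to 2 when libraries were left out. There it was 2 (csi-miR3954 at −1.25 and ptc-miR472a at 0.82, both adjusted p = 0.0182) without replicate 2 of C. grandis at 400 µM with scaling kept, and 1 (csi-miR3954 at −1.16, adjusted p = 0.0499) without replicate 2 of C. grandis at 10 µM with scaling kept. In the species comparison at 400 µM it was 0 to 2 when libraries were left out. The cause was not tested.

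No reversed value passed the test before or after. The boron difference of gma-miR482a-5p in C. sinensis was −0.0314 with median-of-ratios scaling, −0.0224 with total counts, −0.0302 with DESeq2, −0.0388 with no filter, −0.0387 with a mean CPM of at least 10 and −0.10 with only its 6 libraries. In the species comparison at 10 µM total-count scaling gave 0.13 for gma-miR482a-5p, 0.12 for csi-miR472 and 0.10 for ptc-miR472a. With libraries left out, gma-miR482a-5p ran from −0.63 to 0.0671 (boron, C. grandis), −0.11 to 0.0578 (boron, C. sinensis), −0.59 to 0.0647 (their difference), −0.71 to 0.0444 (species, 400 µM) and −0.12 to 0.0789 (species, 10 µM). Under the same leave-outs csi-miR472 ran from −0.23 to 0.10 between species at 10 µM, and ptc-miR472a from −0.0253 to 0.46 at 400 µM.

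With the replicate number as a block no member call changed (csi-miR3954 in C. grandis −0.995, adjusted p = 0.125; ata-miR9863a-3p between species 1.17 and 1.40). Across boron levels in C. grandis, deviations of libraries with the same number correlated at −0.07, −0.24 and 0.24. In neither species do the labels say that a shared number means shared plants. Over all entries, the called count in C. grandis was 2, with 4, 4, 5 and 0 under median-of-ratios scaling, total counts, DESeq2 and a fit of 6 libraries, and 0 to 16 over leave-outs. The difference of effects gave 0 to 2 entries. Between species at 400 µM it was 49, with 28 when each sequence entered once and 19 to 62 over leave-outs, and at 10 µM 48, with 23 to 58 over all alternatives. With 3 libraries a group and few counts for gma-miR482a-5p, intervals stay wide, so a missed threshold does not show equal levels.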

Other observations

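The 22-nt class as a whole, 19 sequences of which 3 are members, was larger in C. grandis than in C. sinensis in every library, a quantity looked at after the values above were seen and not tested. It held 28.2%, 19.5% and 16.8% of all counts (each sequence counted once) in C. grandis at 400 µM, and 22.2%, 23.4% and 14.8% in C. grandis at 10 µM. In C. sinensis it held 10.04%, 11.3% and 9.60% at 400 µM, and 9.94%, 10.1% and 8.81% at 10 µM. The 3 members of 22 nt made up 14.8% to 21.8% of the counts of this class in C. grandis and 24.3% to 30.3% in C. sinensis.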
